A study of Mus musculus with 36 samples.

Results

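Erythroid maturation genes are the genes that red cell precursors use to become red cells, and 9 of them were followed here in mouse knee cartilage: Klf1, Gata1, Tfrc, Alas2, Slc4a1, Epb42, Ahsp, Hemgn and Car1. A gene entered by its RefSeq accession, and where several transcripts of a gene were counted the one with the highest mean count over the libraries was used. Of these 9 genes, 8 were found among the 23048 genes in the RNA counts, and Ahsp was not analysed here. The mice were male C57BL/6J animals whose right knee was operated at 12 weeks of age, when the medial meniscus was destabilized (DMM) to induce osteoarthritis. The unoperated left knee was the control, and cartilage of the tibial plateaus and femoral condyles was microdissected at 4 or 12 weeks after surgery. Each library pooled 3 knees, and there were 3 control and 3 DMM libraries of RNA-seq at each time point (12 RNA libraries in all). A second set of mice gave the DNA for reduced representation oxidative bisulfite sequencing (RRoxBS), again with 3 libraries per limb and time point. The labels name no altered allele and no drug for any group, and control values are those of the opposite limb of an operated animal.

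Red cells arise in the bone marrow from progenitors that divide under erythropoietin, fill with hemoglobin and finally expel their nucleus and organelles. GATA1 and KLF1 are the transcription factors that switch on most genes of this program. The transferrin receptor TFRC brings in iron, ALAS2 starts heme synthesis in these cells, SLC4A1 (band 3) and EPB42 (protein 4.2) build the membrane anchor of the red cell skeleton, AHSP is a chaperone of alpha globin, HEMGN is a nuclear protein of erythroid precursors, and CAR1 is a carbonic anhydrase. Articular cartilage has no vessels and no marrow, while the bone beneath it has both. TFRC is used by every dividing cell and GATA1 also by megakaryocytes, mast cells and eosinophils, so these genes are less particular to red cells than the others.

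The promoters are shown because a GATA word is the recognition sequence of GATA1. Whether such words bear on the levels of these genes was not tested. The RefSeq promoter table (GRCm38.p6) matched 6 of the members, and Slc4a1, Car1 and Ahsp were not in it. The 250 bases before the start site were searched on both strands for AGATAA and for AGATAG, and likewise for TGATAA and for TGATAG. A match was found in 4 of the 6 promoters and in 26.5% of all 32851 promoters in the table. The 4 with a match follow, 5′ to 3′ on the strand of the gene, with the GATA word in capitals (written as its reverse complement where it lies on the other strand).
Klf1, chr8:84901732-84901981, plus strand: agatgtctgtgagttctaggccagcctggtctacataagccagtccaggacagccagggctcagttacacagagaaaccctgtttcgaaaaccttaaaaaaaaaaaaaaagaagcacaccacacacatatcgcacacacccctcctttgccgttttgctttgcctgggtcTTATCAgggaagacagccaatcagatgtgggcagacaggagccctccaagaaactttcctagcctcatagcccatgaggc
Alas2, chrX:150547167-150547416, plus strand: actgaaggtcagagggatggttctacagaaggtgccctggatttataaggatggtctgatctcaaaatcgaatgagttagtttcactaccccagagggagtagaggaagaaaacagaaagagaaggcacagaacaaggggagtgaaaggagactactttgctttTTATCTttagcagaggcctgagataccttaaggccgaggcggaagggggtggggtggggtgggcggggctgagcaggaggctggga
Epb42, chr2:121036878-121037127, minus strand: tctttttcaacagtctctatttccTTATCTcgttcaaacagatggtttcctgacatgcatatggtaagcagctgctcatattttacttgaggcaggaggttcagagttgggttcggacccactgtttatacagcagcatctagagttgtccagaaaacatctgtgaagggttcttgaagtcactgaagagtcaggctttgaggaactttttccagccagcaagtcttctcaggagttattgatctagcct
Hemgn, chr4:46404184-46404433, minus strand: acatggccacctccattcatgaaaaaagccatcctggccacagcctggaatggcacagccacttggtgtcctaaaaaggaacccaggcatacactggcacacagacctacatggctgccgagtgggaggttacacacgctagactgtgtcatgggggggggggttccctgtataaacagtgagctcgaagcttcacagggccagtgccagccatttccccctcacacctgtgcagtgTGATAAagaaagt
The word began 80 bases before the start site in Klf1, 86 bases before it in Alas2, 226 bases before it in Epb42 and 13 bases before it in Hemgn. The Gata1 and Tfrc promoters held no GATA word in this window. CCNCNCCC, a short form of the CACC element that KLF1 recognizes, was present on either strand in 4 of the 6 promoters (Gata1, Alas2, Tfrc and Hemgn) and in 45.9% of all promoters. The Tfrc promoter is shown for its 25 CG dinucleotides, in capitals, against 2 to 4 in the other 5 matched members and a median of 6 over all promoters. It is the member with the most covered cytosines in the promoter methylation data given last.
Tfrc, chr16:32608646-32608895, plus strand: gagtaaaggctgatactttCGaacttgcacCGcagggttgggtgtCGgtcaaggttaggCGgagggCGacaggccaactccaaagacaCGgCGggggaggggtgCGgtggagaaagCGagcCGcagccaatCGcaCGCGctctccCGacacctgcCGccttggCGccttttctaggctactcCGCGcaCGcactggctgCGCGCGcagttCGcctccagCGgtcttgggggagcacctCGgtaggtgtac

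The RNA libraries held between 27706547 and 62737656 counts. In GRCm38.p6 the genes lie at chr8:84901982-84905291 (Klf1), chrX:7959260-7967910 (Gata1), chr16:32608896-32632794 (Tfrc), chrX:150547417-150570622 (Alas2), chr11:102348820-102365281 (Slc4a1), chr2:121017891-121036877 (Epb42), chr4:46393989-46404183 (Hemgn) and chr3:14766214-14808365 (Car1), and reads were counted over their exons. No member had fewer than 1005 reads in a library, so counting error was small beside the differences between libraries. All levels are CPM, counts scaled to the size of the library, after TMM scaling over the 12 libraries. The labelled tissue was present: the summed CPM of 14 chondrocyte genes lay between 11414 and 40972 in every library. So were genes of marrow cells, with 9321 to 44340 CPM for 11 neutrophil and myeloid precursor genes and 6318 to 18787 CPM for the adult and embryonic globins. The globin sum holds both Hba-a1 and Hba-a2, whose counts were practically the same, so the same reads may enter it 2 times. Adult Hbb-bs had a mean of 4329 CPM, whereas the embryonic globins Hbb-bh1, Hbb-y and Hba-x were near 0, with means of 0.207, 0.0763 and 0.0227 CPM. In pooled tissue of this kind, fewer cells of a type and less RNA per cell cannot be told apart.

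All 8 genes were expressed in all 12 libraries, and the differences between libraries of the same group were large. At 4 weeks 7 of the 8 had a lower mean in DMM cartilage, and the limbs overlapped for each of the 8 genes (background not overlapping 21.2%). At 12 weeks all 8 had a lower mean in DMM than in control cartilage, by factors of 1.25 (Car1) to 1.90 (Tfrc). DMM libraries lay below control libraries without overlap for Tfrc, Slc4a1, Epb42 and Hemgn (background of lower transcripts 8.85%). No member passed the edgeR test after adjustment over all transcripts at either time point. DESeq2 called Tfrc, Slc4a1 and Epb42 lower at 12 weeks (background of lower calls 1.47%). By an interaction test, a difference of the limb effect between the weeks was not shown for any member. The plot of CPM by library shows the 4 groups for each gene.

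**Figure D1:**
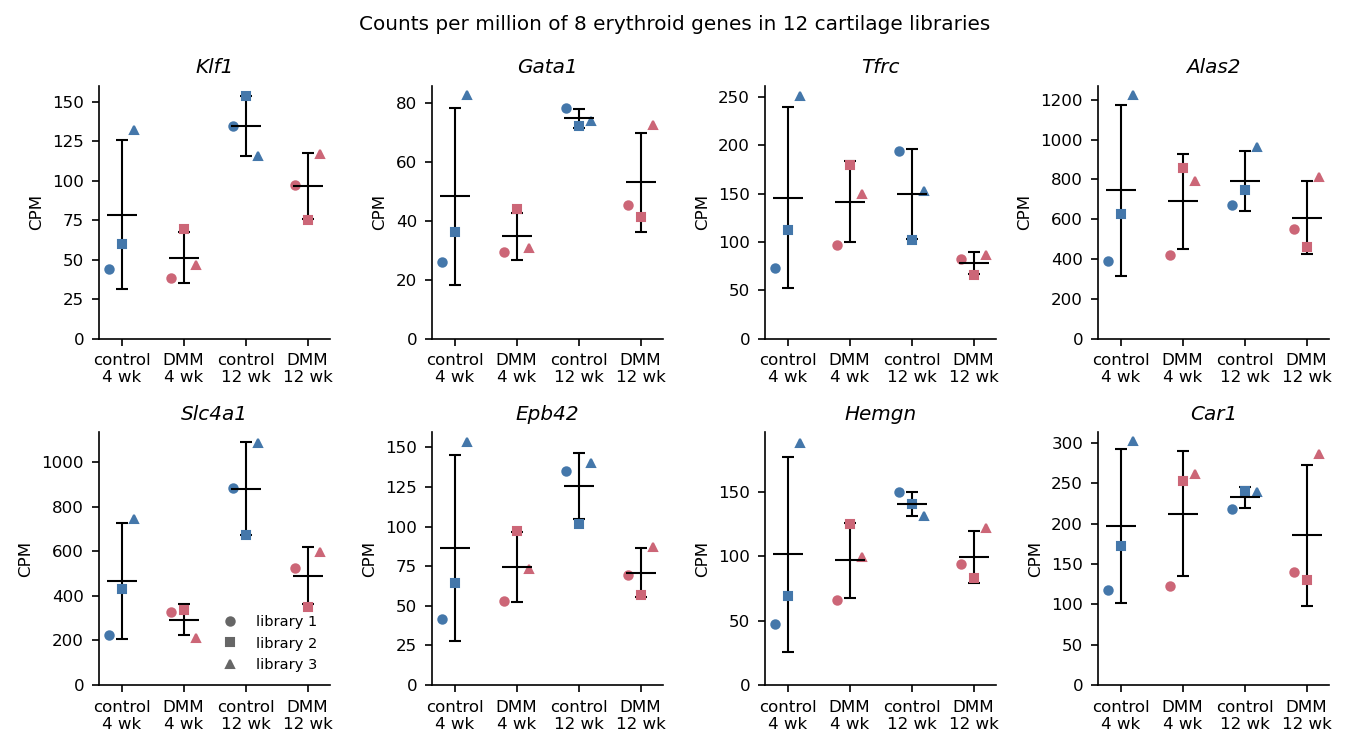
CPM of each member in the 12 RNA libraries (y axis, linear, from 0), by limb and week (x axis). Blue marks are control and red marks DMM libraries, the marker shape gives the library number, and the black bar and whiskers are the mean ± SD of 3 libraries. At 4 weeks control library 3 is the highest for all 8 genes, and at 12 weeks DMM library 2 is the lowest for all 8.

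Klf1, the factor that directs the globin and red cell membrane genes, was at 43.9, 59.8 and 132 CPM in control libraries 1 to 3 and at 38.1, 69.2 and 46.6 CPM in DMM libraries 1 to 3 at 4 weeks. At 12 weeks it was at 135, 154 and 116 CPM in control and 97.2, 75.5 and 117 CPM in DMM cartilage. The limbs overlapped at both times, at 12 weeks only through DMM library 3, which lay just above control library 3. Gata1, the master regulator of the lineage, was at 26.2, 36.1 and 82.6 CPM in control and 29.3, 44.0 and 30.7 CPM in DMM cartilage at 4 weeks. At 12 weeks its control libraries were close together at 78.5, 72.2 and 74.0 CPM, with the DMM libraries at 45.5, 41.2 and 72.4 CPM. The same DMM library 3 reached the level of the controls, and the other DMM libraries were below them.

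Tfrc, the receptor that takes up iron-loaded transferrin, was at 73.2, 112 and 251 CPM in control and 96.6, 179.5 and 149 CPM in DMM cartilage at 4 weeks. By 12 weeks its level was 194, 102 and 152 CPM in control and 82.7, 65.6 and 86.8 CPM in DMM cartilage. The 3 DMM libraries at 12 weeks were all below every control library of that week, and their spread was the smallest of the 4 groups (SD 11.2 CPM against 42.0 to 93.7 CPM). Alas2, the first and rate-limiting enzyme of heme synthesis in red cell precursors, was at 389, 624 and 1225 CPM in control and 419, 860.1 and 791 CPM in DMM cartilage at 4 weeks. Later, at 12 weeks, it was at 672, 747 and 963 CPM in control and 552, 458 and 815 CPM in DMM cartilage. The limbs overlapped at both times.

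Slc4a1, the anion exchanger of the red cell membrane, was at 227, 431 and 746 CPM in control and 329.5, 335 and 212 CPM in DMM cartilage at 4 weeks. By 12 weeks its level was 885, 672 and 1088 CPM in control and 526, 349 and 597 CPM in DMM cartilage, with every DMM library below every control library. Epb42, which ties band 3 to the ankyrin complex, was at 41.6, 64.6 and 153 CPM in control and 53.2, 97.5 and 73.3 CPM in DMM cartilage at 4 weeks. At 12 weeks it was at 135, 102 and 140.4 CPM in control and 69.2, 56.8 and 87.0 CPM in DMM cartilage, again without overlap.

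Hemgn, the hematopoietic nuclear protein hemogen, was at 47.5, 69.1 and 188 CPM in control and 66.2, 125 and 99.5 CPM in DMM cartilage at 4 weeks. By 12 weeks its level was 150.3, 141 and 132 CPM in control and 93.9, 83.1 and 122 CPM in DMM cartilage, without overlap. Car1, which interconverts carbon dioxide and bicarbonate, was at 117, 172 and 303 CPM in control and 123, 252 and 262 CPM in DMM cartilage at 4 weeks. At 12 weeks its control libraries were at 218, 240.4 and 239.7 CPM and its DMM libraries at 140.3, 130.0 and 286 CPM. DMM library 3 was here the highest of all 6 libraries of that week, so that the DMM group spanned the control group on both sides.

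Levels of different genes were compared per kilobase of transcript (RPKM). Over the 12 libraries Alas2 had the highest mean, with 359 RPKM, followed by Car1 with 173, Slc4a1 with 117, Klf1 with 61.2, Hemgn with 47.5, Gata1 with 27.7, Tfrc with 26.2 and Epb42 with 22.8 RPKM. Alas2 was first in each of the 4 groups. In control cartilage at 12 weeks Car1 (194 ± 10.8 RPKM, SD, n = 3) and Slc4a1 (194 ± 45.7 RPKM) did not differ beyond their spread. Klf1 and Hemgn changed places between groups, with 34.8 ± 10.9 and 41.9 ± 12.7 RPKM in DMM cartilage at 4 weeks and 91.4 ± 12.9 and 61.0 ± 4.01 RPKM in control cartilage at 12 weeks. The 3 lowest genes also changed order between groups and lay within each other's spread at 4 weeks.

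The first comparison was of the operated with the unoperated limb at the earlier time point. At 4 weeks 7 of the 8 members had a mean below control, with a median log2 fold change of -0.18, and 52.5% of all 21140 transcripts tested were below 0, with a median of -0.03. The quasi-likelihood test of edgeR, adjusted by Benjamini-Hochberg over all transcripts, called 0 of 8 members, where the background was 0.0757% of all transcripts. At an unadjusted p under 0.05 there were also 0 of 8 (background 13.7%), DESeq2 called 0 of 8 (background 3.54%), and 0 of 8 had limbs that did not overlap (background 21.2%). The lowest value was that of Slc4a1, with a log2 fold change of -0.69 ± 0.43 (SE) and an adjusted p of 0.452 by edgeR, and the highest that of Car1, with 0.09 ± 0.41 and an adjusted p of 0.927 by edgeR. Klf1 (-0.63 ± 0.42) and Gata1 (-0.49 ± 0.42) were nearer to Slc4a1, and Tfrc, Alas2 and Hemgn lay between -0.13 and -0.05. The control libraries of this week were deeper (47843461 to 50066012 counts) than the DMM libraries (33105311 to 42964188 counts), and the part of depth was not tested. The direction of the median rested on single libraries. Klf1 (-0.91 to -0.02) and Slc4a1 (-1.01 to -0.18) stayed below 0 whichever single library was left out. Without control library 3 the median of the 8 log2 fold changes was 0.46 and 6 of the 8 were above 0. In that fit 1 of 8 was higher at an unadjusted p under 0.05 by edgeR (1567 of all 21344 transcripts). Without DMM library 1 the median was 0.04 with 4 of the 8 above 0, and in both fits edgeR called 0. Without control library 1 the median was -0.49 and without DMM library 2 it was -0.39, with all 8 below 0 and 0 called in each, and 2 of 8 were lower at an unadjusted p under 0.05 by edgeR in the former (1642 of all 21384 transcripts).

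In the same comparison at 12 weeks all 8 members had a log2 fold change below 0, against 48.5% of 21010 transcripts, and their median was -0.49 against 0.01 over all transcripts. Tfrc (-0.93 ± 0.24, SE), Slc4a1 (-0.84 ± 0.26) and Epb42 (-0.82 ± 0.19) had the lowest log2 fold changes, and Alas2 (-0.38 ± 0.25) and Car1 (-0.32 ± 0.29) the values nearest to 0. edgeR called 0 of 8 after adjustment, with adjusted p between 0.211 and 0.576, in a comparison where it called 1 transcript (background 0.00476%, and 0% lower). At an unadjusted p under 0.05, 6 of 8 were lower by edgeR (all but Alas2 and Car1), where the background of lower transcripts was 7.39%. This count was 3 of 8 without DMM library 1 (1175 of all 21175 transcripts), 3 of 8 without DMM library 2 (586 of 21384) and 2 of 8 with all 12 libraries in 1 fit (872 of 21618). The DMM libraries lay below all control libraries for 4 of 8 members, where the background was 8.85%. The members varied together across the 12 libraries, with a Pearson's r of 0.723 to 0.985 with their mean. Counts of members, here and below, are therefore not counts of independent genes.

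DESeq2 called 3 of the 8 members lower at 12 weeks, where its background of lower calls was 1.47%. By DESeq2 the adjusted p was 0.0142 for Tfrc, 0.0326 for Slc4a1 and 0.00916 for Epb42. Their log2 fold changes by DESeq2 were -0.93, -0.85 and -0.83, close to those of edgeR. The size of the difference depended on DMM library 3, without which the median log2 fold change was -0.77 and all 8 members were lower at an unadjusted p under 0.05 by edgeR (as were 2470 of all 21213 transcripts), with adjusted p between 0.0613 and 0.183. Without control library 2 edgeR called 2 members, Tfrc and Epb42, where the background of lower calls was 2.11%. Leaving out any other single library gave 0 calls by edgeR at 12 weeks. All 8 log2 fold changes stayed below 0 whichever single library was left out.

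Whether the limb effect itself differed between 4 and 12 weeks was tested as an interaction of limb and week. edgeR called 0 of 8 members and 0 of 21618 transcripts (background 0%), 0 of 8 had an unadjusted p under 0.05 (background 12.3%), and DESeq2 called 0 of 8 (background 0.0741%). Tfrc had the most negative difference of log2 fold changes, -0.89 ± 0.56 (SE), with an adjusted p of 0.471 by edgeR. Klf1 (0.13 ± 0.50) and Gata1 (-0.02 ± 0.51) were closest to 0 beside Slc4a1 (-0.17 ± 0.54). Without control library 3 of week 4 the median difference was -0.87. In that fit 3 of 8 were lower at an unadjusted p under 0.05 by edgeR (2447 of all 21862 transcripts). With same-numbered libraries as blocks 1 of 8 was lower at that p (1387 of 21618). Without control library 1 of week 4 the median was 0.002, with 4 of 8 above 0 and 0 of 8 at that p. In these fits edgeR called 0 after adjustment. A difference of the limb effect between time points was not shown for any member.

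**Figure D2:**
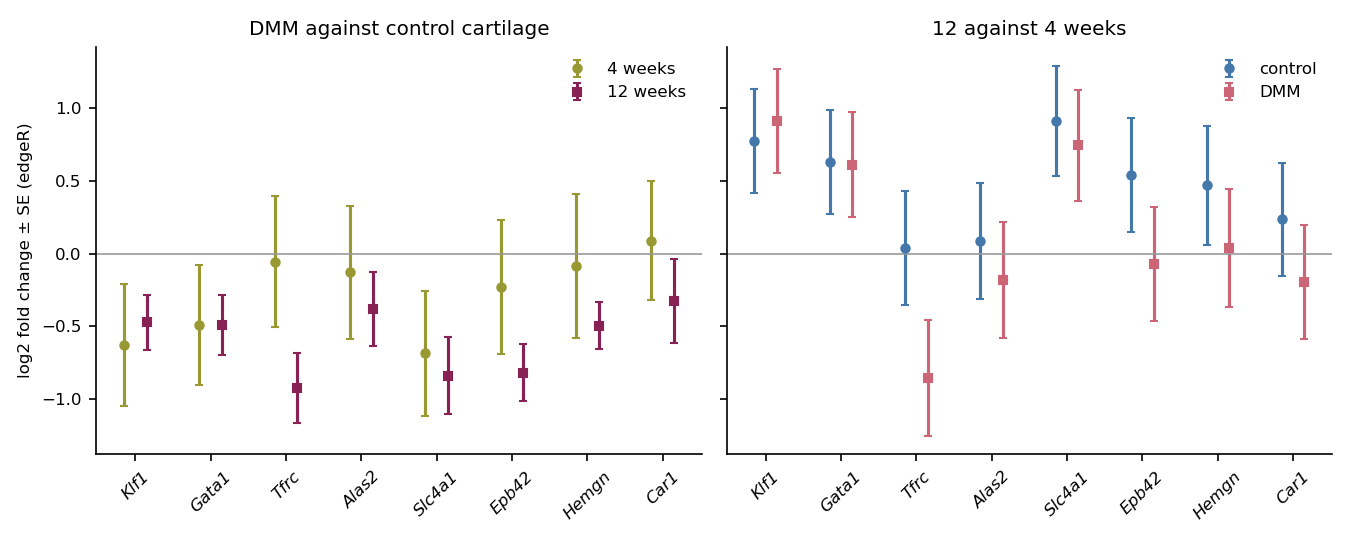
Log2 fold change ± SE by edgeR (y axis) of each member (x axis), for DMM against control cartilage at 4 and 12 weeks (left) and for 12 against 4 weeks in control and in DMM cartilage (right). At 12 weeks all 8 members lie below 0 in the comparison of limbs. In the comparison of weeks Klf1, Gata1, Slc4a1 and Hemgn lie above 0 in both limbs, Hemgn at 0.04 in DMM cartilage.

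The comparison of 12 with 4 weeks was made within each limb, and it shares libraries with the comparisons of limbs. Time after surgery, age and any difference in preparation between time points cannot be told apart in it. In control cartilage all 8 members had a higher mean at 12 weeks, with a median log2 fold change of 0.51 against a median of -0.00288 over all transcripts. Slc4a1 (0.91 ± 0.38, SE), Klf1 (0.78 ± 0.36) and Gata1 (0.63 ± 0.36) had the highest values, and Tfrc (0.04 ± 0.39) and Alas2 (0.09 ± 0.40) were near 0. edgeR called 0 of 8 (background 5.69%), DESeq2 called 0 of 8 (background 14.0%), and Klf1 and Slc4a1 had an unadjusted p under 0.05 by edgeR (background of higher transcripts 13.3%). These values depended on single control libraries of week 4. Without control library 1 the median was 0.14 with 5 of 8 above 0. Without control library 3 of week 4 edgeR called 5 of 8 higher, namely Klf1, Gata1, Slc4a1, Epb42 and Hemgn, with log2 fold changes of 1.22 to 1.40, where the background of higher calls was 10.2%.

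In DMM cartilage the members split by direction between the same weeks. Klf1 (0.91 ± 0.36, SE), Slc4a1 (0.75 ± 0.38) and Gata1 (0.61 ± 0.36) were higher in mean at 12 weeks, Tfrc was lower (-0.86 ± 0.40), and Alas2, Epb42, Hemgn and Car1 lay between -0.20 and 0.04. edgeR called 0 of 8 (background 23.6%), with the lowest adjusted p for Klf1 (0.0844) and Tfrc (0.138), and DESeq2 called 0 of 8 (background 30.7%). Klf1 was the 1 member with an unadjusted p under 0.05 by edgeR (background 37.4%). The control libraries shared the fit and entered this comparison through the filter, the scaling and the estimate of spread. Without control library 3 of week 4 edgeR called Klf1 higher and Tfrc lower (background 28.1%), and without control library 1 of week 4 it called Klf1 (background 25.4%).

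Because the total level of erythroid RNA differed between libraries, each member was also expressed as a percentage of Alas2 CPM in the same library, a ratio that does not depend on the scaling between libraries. Alas2 was chosen as the reference after the values were seen, as the member with the highest level per kilobase, and the ratios are given without a test. Klf1 was at 11.3%, 9.57% and 10.8% of Alas2 in control and 9.10%, 8.05% and 5.89% in DMM libraries at 4 weeks. Later, at 12 weeks, it was at 20.1%, 20.6% and 12.0% in control and 17.6%, 16.5% and 14.4% in DMM libraries. Every library of week 12 was thus above every library of week 4, for both limbs, and at 4 weeks the DMM libraries were below the control libraries.

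Gata1 was likewise higher relative to Alas2 in all 6 libraries of week 12 (7.68% to 11.7%) than in all 6 of week 4 (3.88% to 6.99%). Of the 7 ratios, those of Klf1 and Gata1 were the 2 whose weeks did not overlap, both higher at 12 weeks, where the background of higher ratios over all transcripts was 2.40%. Slc4a1 stood at 58.2%, 69.1% and 60.9% of Alas2 in control and 78.7%, 39.0% and 26.9% in DMM libraries at 4 weeks. Its ratio at 12 weeks was 132%, 90.0% and 113% in control and 95.2%, 76.1% and 73.3% in DMM libraries, with an overlap between the weeks through DMM library 1 of week 4. In DMM cartilage Tfrc went the other way, from 23.1%, 20.9% and 18.9% of Alas2 at 4 weeks to 15.0%, 14.3% and 10.7% at 12 weeks, while control library 1 of week 12, at 28.9%, was the highest of all 12. Between limbs, Klf1 at 4 weeks was the 1 ratio of 7 that was lower in DMM without overlap (background of lower ratios 0.546%), and Epb42 was the 1 ratio of 7 at 12 weeks (background of lower ratios 0.490%). All background ratios, also those between weeks, carry the spread of Alas2 itself, which ran from 389 to 1225 CPM at 4 weeks. Members that vary with Alas2 escape part of this spread. These backgrounds therefore do not measure how often members would separate by chance. Car1 stayed between 24.7% and 35.1% of Alas2 in all 12 libraries, and neither weeks nor limbs separated it.

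**Figure D3:**
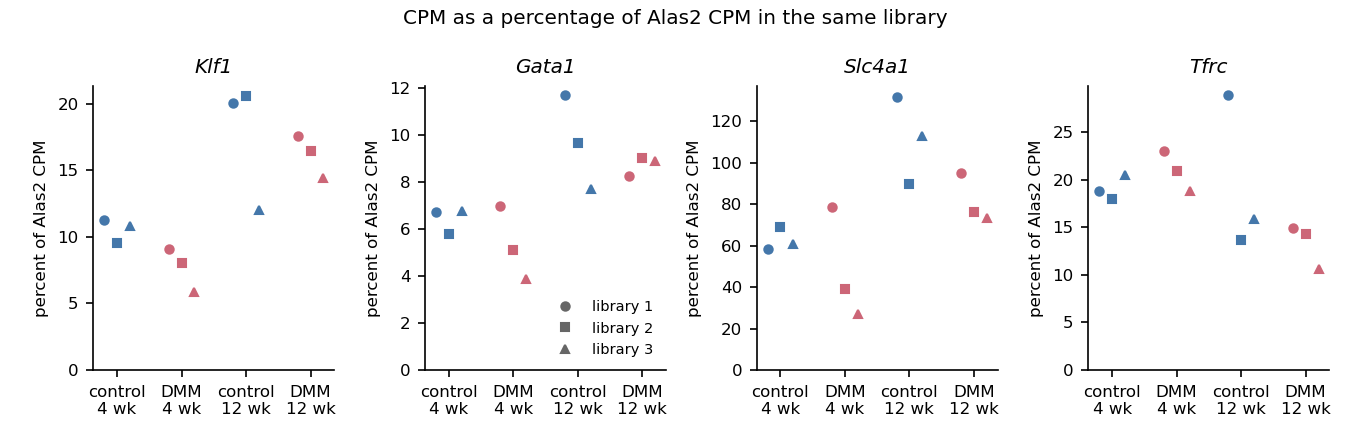
CPM of Klf1, Gata1, Slc4a1 and Tfrc as a percentage of Alas2 CPM in the same library (y axis, linear, from 0), by limb and week (x axis). Blue marks are control and red marks DMM libraries, and the marker shape gives the library number. For Klf1 and Gata1 all 6 marks of week 12 lie above all 6 marks of week 4.

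The libraries ranked in much the same way for each member. At 4 weeks control library 3 was the highest of 6 libraries for 8 of 8 members and control library 1 the lowest for 6 of 8. At 12 weeks DMM library 2 was the lowest for 8 of 8, and the highest was a control library for 7 of 8. The summed CPM of the 8 members ran from 966 to 3081 CPM over the 12 libraries, both ends being control libraries of week 4. Across the 12 libraries, which share their groups and scaling, the log2 CPM of each member correlated with the mean of the members at a Pearson's r of 0.72 (Tfrc) to 0.99 (Epb42), a description that includes the gene itself. Among the 10 other genes with the highest correlation with that mean were Trim10, Aqp9, Ctse, Ift140, Rhd, Rhag, Slc16a1, Tspo2 and Ces2g, with r from 0.97 to 0.99 and Spearman's rho from 0.94 to 0.99. Of those named, Trim10, Rhd and Rhag belonged to the erythroid lists described next.

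The other genes of red cell formation were taken from lists that were chosen with earlier results of these data known. They covered globins, heme synthesis, iron and mitochondrial transport, membrane and skeleton, and transcription regulators. The other lists were the receptors for erythropoietin and stem cell factor, and late enzymes and organelle clearance. Of 52 such genes found, 49 passed the filter on low counts in the comparison of limbs at each time point. At 4 weeks 40 of 49 had a mean below control, with a median log2 fold change of -0.35, and edgeR and DESeq2 each called 0 of 49, with 6 of 49 at an unadjusted p under 0.05 by edgeR (background 13.7%). This count of 6 ran from 0 without DMM library 3 of week 4 (1201 of all 21507 transcripts) to 15 without control library 1 (2787 of 21384). Without control library 3 of week 4 the median was 0.21 and 15 of 49 were below 0. At 12 weeks 46 of 49 were below control, with a median of -0.34, and 19 of 49 had an unadjusted p under 0.05 by edgeR, as had 3430 of all 21010 transcripts. This count of 19 ran from 9 without DMM library 2 (1465 of all 21384 transcripts) to 34 without DMM library 3 (4835 of 21213), where the median was -0.55. It was 6 of 50 with all 12 libraries in 1 fit (2170 of 21618). edgeR called 0 of 49 at 12 weeks and DESeq2 called 8, all lower (background 1.47%). Among them were Abcb10 of mitochondrial transport, Sptb, Kel, Add2 and Ermap of the membrane and skeleton, the stem cell factor receptor Kit, and Xpo7, an exporter needed for the condensation of the erythroid nucleus.

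By group, all 14 membrane and skeleton genes were below control at 12 weeks, with a median log2 fold change of -0.52 and 10 of 14 at an unadjusted p under 0.05 by edgeR (background of lower transcripts 7.39%). All 7 heme synthesis genes were below control as well, with a median of -0.36, and 1 of 7 had an unadjusted p under 0.05. So were all 9 late enzyme and organelle clearance genes (median -0.34, 2 of 9 at that p). Of the 7 transcription regulators 5 were below control and 2 above it (median -0.27, 0 of 7 at that p). Of the 6 iron and mitochondrial transport genes 5 were below control (median -0.39, 4 of 6 at that p). Steap3 of that list was above it, at 23.25, 23.8 and 22.1 CPM in control and 31.8, 33.25 and 26.1 CPM in DMM cartilage. Over all transcripts 3430 of 21010 had such a p. The 4 globin genes that passed the filter lay close together, from -0.32 to -0.28, and 0 of 4 had an unadjusted p under 0.05. Hba-a1 and Hba-a2, near-identical copies, had practically the same counts, and their levels cannot be told apart. Kit, which acts in early progenitors, was at 35.3, 12.1 and 45.4 CPM in control and 12.4, 9.68 and 12.1 CPM in DMM cartilage at 12 weeks, with an overlap through control library 2. Epor, the erythropoietin receptor, was at 39.8, 44.9 and 41.5 CPM in control and 26.6, 23.5 and 38.4 CPM in DMM cartilage, without overlap. edgeR gave both an adjusted p above the threshold, with log2 fold changes of -1.43 ± 0.44 and -0.51 ± 0.19 (SE).

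Between weeks in DMM cartilage edgeR called 4 of 50 other erythroid genes higher, where it called 23.6% of all transcripts in either direction. Ppox of heme synthesis (1.18 ± 0.25, SE), Dmtn of the membrane skeleton (0.89 ± 0.24), the early progenitor factor Gata2 (1.22 ± 0.24) and Epor (1.08 ± 0.34) were higher at 12 weeks, as log2 fold changes. Their adjusted p by edgeR ran from 0.00650 for Gata2 to 0.0386 for Epor. Gata2 was called whichever of the 12 libraries was left out, Ppox in all cases but 1 (without DMM library 3 of week 4), and Dmtn and Epor were lost in several. In control cartilage edgeR called 0 of 50 between weeks, with 9 of 50 at an unadjusted p under 0.05 (5489 of all 21618 transcripts), and DESeq2 called 3 (Ppox, Dmtn and Gata2, all higher), where it called 14.0% of all transcripts. Without control library 3 of week 4 edgeR called 24 of 50 higher there (background of higher calls 10.2%), as it did with 5 of the 8 members.

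Genes of other cells also differed in level between these libraries, and their part in the values above was not tested. At 12 weeks all 11 neutrophil and myeloid precursor genes were below control, with a median log2 fold change of -0.54, and 8 of 9 B lymphocyte genes, with a median of -0.53. The summed CPM of the neutrophil list was 26318 to 44340 in control and 21226 to 34484 in DMM libraries. All 14 chondrocyte genes were above control at 12 weeks, with a median of 0.55, and their summed CPM was 11414 to 33296 in control and 23138 to 37539 in DMM libraries. At 4 weeks the neutrophil list had a median of 0.02, the B lymphocyte list of -0.15 and the chondrocyte list of -0.72. Skeletal muscle genes were below control at 4 weeks for all 10 genes, with a median of -2.35. The megakaryocyte and platelet genes, which also respond to GATA1, had medians of -0.15 at 4 weeks and -0.28 at 12 weeks, and the mast cell and eosinophil genes -0.10 and -0.46. In the comparisons of limbs Myh1 of skeletal muscle, lower in DMM at 4 weeks, was the 1 gene of these lists that edgeR called. At an unadjusted p under 0.05 by edgeR there were 0 of 11 neutrophil, 3 of 9 B lymphocyte and 2 of 14 chondrocyte genes at 12 weeks. Over all transcripts there were 3430 of 21010 at that p.

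These genes also differed between weeks, alongside the members. In control cartilage all 11 neutrophil and myeloid precursor genes had a higher mean at 12 than at 4 weeks, with a median log2 fold change of 1.03. At an unadjusted p under 0.05 by edgeR there were 8 of 11 (background of higher transcripts 13.3%), and after adjustment edgeR called Mpo (background 5.69%). The summed CPM of the 11 genes was 9321 to 26961 at 4 weeks and 26318 to 44340 at 12 weeks. In DMM cartilage 10 of 11 were higher in mean, with a median of 0.57, and edgeR again called Mpo (background 23.6%). All 6 adipocyte genes were below their 4-week level, with medians of -1.58 in control and -1.59 in DMM cartilage. Of these edgeR called 1 in control (background 5.69%) and 3 in DMM cartilage (background 23.6%). The chondrocyte list had medians of -0.69 in control and 0.52 in DMM cartilage. Their part in the difference between weeks was not tested.

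**Figure D4:**
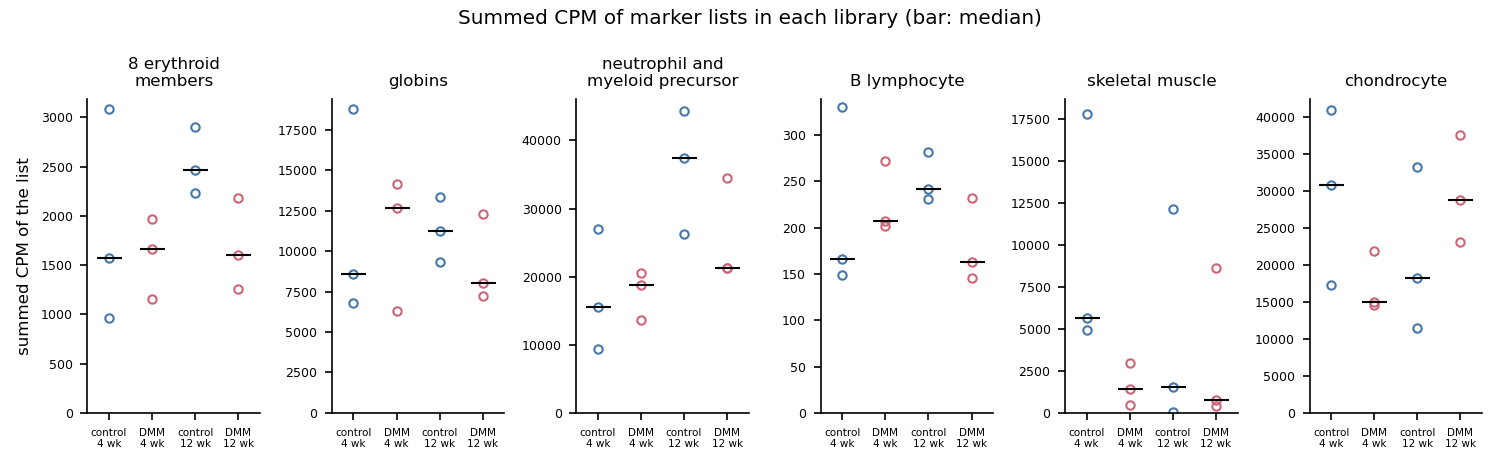
Summed CPM of the 8 members, of the globins and of 4 marker lists of other cells (y axes, linear, from 0, each with its own scale), by limb and week (x axis). Each open circle is 1 library, blue for control and red for DMM, and the black bar is the median of 3 libraries. Hba-a1 and Hba-a2, with practically the same counts, both enter the globin sum. At 12 weeks the DMM median is below the control median for the members, the globins, the neutrophil and the B lymphocyte genes and above it for the chondrocyte genes.

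DNA methylation of the members was read as 5-methylcytosine (5mC) from the oxidised libraries, in which 5-hydroxymethylcytosine is read as unmethylated. It was computed as the percentage of reads with C over the CG cytosines covered by at least 10 reads in all 6 libraries of a week. Promoters ran from 2000 bases before to 500 bases after the start site and gene bodies from there to the end of the gene. With 3 against 3 libraries the smallest p of the exact permutation test is 0.1. Promoter values could be had for 2 members. The Tfrc promoter was nearly unmethylated, with 0.946%, 0.499% and 0.743% 5mC in control and 0.598%, 0.429% and 0.683% in DMM libraries over 34 cytosines at 4 weeks. The values at 12 weeks were 0.462%, 0.441% and 0.275% in control and 0.460%, 0.265% and 0.709% in DMM libraries over 31 cytosines. At these levels the limbs differed by -0.160 percentage points at 4 weeks and 0.0851 at 12 weeks, within the spread of the libraries.

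The Slc4a1 promoter, with 4 covered cytosines at 4 weeks, had 27.7%, 29.0% and 30.5% 5mC in control and 28.3%, 25.0% and 26.6% in DMM libraries. The limbs overlapped (exact permutation test, two-sided, p = 0.2, n = 3 per limb). Thus 0 of 2 promoters at 4 weeks and 0 of 1 at 12 weeks had limbs that did not overlap, where the background over all promoters was 9.59% and 15.5%. The median 5mC over all promoters was 0.853% at 4 weeks.

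Of the gene bodies read, that of Klf1 was the lowest, and the others lay between 42.9% and 91.7% over both weeks. The body of Klf1 had 2.17%, 1.45% and 1.63% 5mC in control and 1.42%, 1.93% and 1.73% in DMM libraries over 42 cytosines at 4 weeks, with similar values at 12 weeks (1.12% to 2.45%). The body of Slc4a1 had 60.2% to 66.4% 5mC at 4 weeks and 55.8% to 64.1% at 12 weeks over 22 cytosines. Hemgn (6 cytosines) lay between 79.9% and 87.2% and Epb42 (3 cytosines) between 82.1% and 91.7% over both weeks, while Car1, with 2 cytosines and as few as 21 reads in a library, ranged from 42.9% to 75.0%. The bodies of Alas2 and Tfrc had no cytosine covered in all libraries of a week. The median 5mC over all gene bodies was 57.1% at 4 weeks and 59.6% at 12 weeks.

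The body of Gata1, read at 8 cytosines, was the 1 of 6 whose limbs did not overlap at 4 weeks, where the background over all gene bodies was 8.28% (2.94% higher in DMM). Its control libraries had 76.2%, 76.8% and 75.8% 5mC and its DMM libraries 77.7%, 81.7% and 78.3%, a difference of 2.98 percentage points (exact permutation test, two-sided, p = 0.1, the smallest possible, n = 3 per limb). At 12 weeks the control libraries spread from 68.5% to 86.7% and enclosed the DMM libraries. At 12 weeks 0 of 6 bodies had limbs that did not overlap (background 20.9%). At a minimum of 20 reads the Gata1 body had no cytosine left at 4 weeks.

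**Figure D5:**
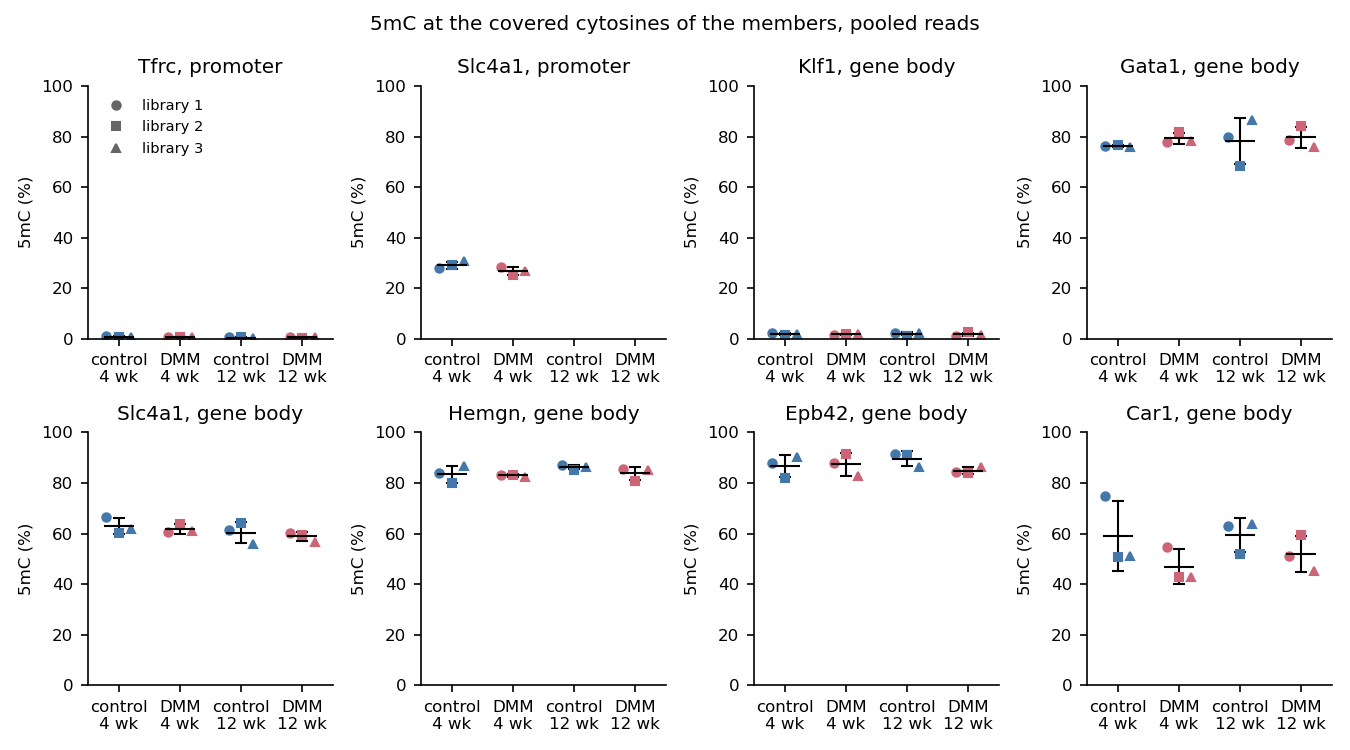
5mC (y axis, percent, 0 to 100) at the promoters of Tfrc and Slc4a1 and in the bodies of 6 members, by limb and week (x axis), pooled over the covered CG cytosines of each region. Blue marks are control and red marks DMM libraries, the marker shape gives the library number, and the black bar and whiskers are the mean ± SD of 3 libraries. The Tfrc promoter and the Klf1 body lie near 0, and the bodies of Hemgn and Epb42 near 80% or above, while those of Gata1 spread from 68.5% to 86.7%.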

How the data were processed

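RNA-seq was measured in 12 libraries and RRoxBS in 12 others. The authors aligned RNA reads with STAR to mm10 and deposited raw featureCounts counts per RefSeq transcript (30048 rows, of which 583 had no symbol here). The labels describe poly(A) libraries, and the study's methods describe a low-input kit that makes full-length cDNA. For the oxidised DNA libraries the authors deposited, per cytosine, how many reads covered it and what percentage of them read C, made with Bismark, the lowest coverage being 10. Bisulfite libraries without oxidation were not used here.

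Counts were tested with edgeR 4.0.16 (R 4.3.3; filterByExpr, TMM, robust quasi-likelihood fit, Benjamini-Hochberg over all transcripts, threshold 0.05), within each week for limbs and over 12 libraries for weeks and the interaction. DESeq2 1.42.0 was the alternative. Correlations used log2 CPM with a prior count of 2. Methylation was computed with Python 3.11.15 from pooled reads at covered cytosines. The tests were checked on simulated data with changes larger than those of the members. This check does not show how often changes of the members' size would be found. Other scalings, filters, a replicate block and leaving out each library were also tried.

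Named genes were all members, the highest or called genes of each list, and the 10 genes most like the mean of the members. Some genes that this rule names are not reported here. Members and lists were chosen with earlier results of these data known. The study compared limbs of the same mice, but nothing in the labels says whether left and right pools of a number came from the same animals. The main tests treated the limb groups as independent. Each library pooled 3 knees, and p-values measure the spread between these pools. Same-numbered libraries did not deviate together (r from -0.55 to 0.36 over 6 pairs).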

Additional observations from a re-analysis of the deposited data

How the results depend on the processing

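Leaving out each library in turn moved the 4-week limb log2 fold changes from -0.78 to 0.15 (Gata1), -0.36 to 0.60 (Tfrc), -0.42 to 0.44 (Alas2), -0.55 to 0.48 (Epb42), -0.41 to 0.72 (Hemgn) and -0.16 to 0.54 (Car1). At 12 weeks 0 to 2 members were called and the median ran from -0.77 to -0.35. For the interaction the median ran from -0.87 to 0.0017, Klf1 from -0.48 to 0.45, Gata1 from -0.67 to 0.30, Alas2 from -0.85 to 0.06 and Slc4a1 from -0.70 to 0.18. Between weeks in control cartilage 0 to 5 members were called, the median ran from 0.14 to 1.23, Tfrc from -0.31 to 0.67, Alas2 from -0.25 to 0.63 and Car1 from -0.06 to 0.66. In DMM cartilage 0 to 2 were called, with Epb42 from -0.27 to 0.14 and Hemgn from -0.17 to 0.24.

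At 12 weeks the count of members called by edgeR (0) became 3 with DESeq2 and 3 with the replicate block (734 of 21010 transcripts called), in both cases Tfrc, Slc4a1 and Epb42. The same numbers do not show paired mice. Under the replicate block Tfrc (0.11) and Hemgn (0.15) at 4 weeks and the interaction of Klf1 (-0.0036) changed sign. So did Tfrc between weeks in control cartilage (-0.0023) and Hemgn in DMM cartilage (-0.0038) without the filter on low counts, and Hemgn in DMM cartilage (-0.0015) without TMM. None of these passed the threshold, and the cause was not tested. With an unweighted mean over cytosines, limbs did not overlap at 1 promoter and 3 gene bodies over both weeks, against 0 and 1 with pooled reads. At 4 weeks these were the Slc4a1 promoter, lower in DMM as were 982 of all 15434 promoters, and the Gata1 body, higher as were 388 of all 15814 bodies. At 12 weeks they were 2 of 6 bodies (Hemgn and Slc4a1), lower as were 3598 of all 15654 bodies. With at least 20 reads 0 gene bodies did not overlap. The 5mC values rest on few covered cytosines for most members.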

Other observations

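Megakaryocytes share GATA1 with red cell precursors, and some of their genes differed between weeks. In DMM cartilage edgeR called Itga2b, the platelet integrin alpha IIb, higher at 12 than at 4 weeks, together with Gp1ba of the von Willebrand factor receptor. In control cartilage it called Itga2b (1 of 8), where it called 5.69% of all transcripts, against 23.6% in DMM cartilage. Itga2b was at 46.9, 61.0 and 104.7 CPM in control and 41.0, 51.5 and 37.7 CPM in DMM libraries at 4 weeks. At 12 weeks it was at 189.9, 138 and 189.6 CPM in control and 103, 139 and 163 CPM in DMM libraries.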
